A study of Mus musculus with 6 samples.

Results

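The expression profiles of macrophages held for 24 h with a ligand of Toll-like receptor 3 (TLR3) were compared directly with those of macrophages held for 24 h with a ligand of Toll-like receptor 2 (TLR2). The comparison took every array that carries either ligand's label, 4 of the 6 arrays in the series. These were the 2 arrays titled as poly I:C treated and the 2 titled as PAM treated. The cells were peritoneal macrophages of C57BL/6 mice, cultured in DMEM with serum. The TLR3 ligand poly I:C, made of paired RNA strands, was given at 2 ug/mL and the TLR2 ligand PAM, a synthetic lipopeptide, at 1 ug/mL. The other 2 arrays hold untreated macrophages of the same strain. No culture time was recorded for these 2 arrays, so it may differ from the 24 h of the ligand arrays. They stayed out of the contrast, and their values are printed only as a reference level, with no test. The labels call the lipopeptide of PAM replicate 1 PAMCSK3 and that of PAM replicate 2 PAMCSK4, although the treatment text gives a single name for both. The series was set up to find genes that go up with TLR3 stimulation and down with TLR2 stimulation.

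Poly I:C imitates the RNA of replicating viruses. TLR3 binds it in endosomes and signals through the adaptor TRIF, a route that activates interferon regulatory factors and leads to type I interferon, which in turn acts on the cell through STAT factors and switches on antiviral genes. Cytosolic RNA helicases can also bind such RNA. TLR2 recognises bacterial lipopeptides at the cell surface together with TLR1 or TLR6 and signals through MyD88 to NF-kB and MAP kinases, a route known for inflammatory cytokines and neutrophil chemokines.

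The 6 largest differences, 3 in each direction, frame the contrast, and the stretch of 250 bases before the annotated start of each of these genes is shown because both pathways end at DNA-binding factors with known target letters. Genes highest with poly I:C come first. The sequences are RefSeq's, build GRCm38.p6, written 5′ to 3′ on the gene's strand. Capitals mark, on either strand, the core of the interferon-stimulated response element (GAAA, any 2 bases, GAAA) or a core of NF-kB sites (GGGA, any 2 bases, TTCC). Tnfsf10 lies at chr3:27316827-27317076 (plus strand), Ifit3b at chr19:34607707-34607956 (plus strand), Ms4a4c at chr19:11407411-11407660 (plus strand), Cxcl3 at chr5:90785851-90786100 (plus strand), Il1b at chr2:129371140-129371389 (minus strand) and Cxcl2 at chr5:90903649-90903898 (plus strand).
Tnfsf10: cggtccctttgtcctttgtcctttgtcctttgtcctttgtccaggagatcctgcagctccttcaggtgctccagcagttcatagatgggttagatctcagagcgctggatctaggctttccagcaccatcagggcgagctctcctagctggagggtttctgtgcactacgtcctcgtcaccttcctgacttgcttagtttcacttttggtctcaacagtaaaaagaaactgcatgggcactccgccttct
Ifit3b: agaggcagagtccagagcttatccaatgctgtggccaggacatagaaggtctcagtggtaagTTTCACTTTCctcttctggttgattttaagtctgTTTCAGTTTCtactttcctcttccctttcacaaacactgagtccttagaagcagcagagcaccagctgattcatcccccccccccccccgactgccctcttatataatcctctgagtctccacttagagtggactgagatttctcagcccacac
Ms4a4c: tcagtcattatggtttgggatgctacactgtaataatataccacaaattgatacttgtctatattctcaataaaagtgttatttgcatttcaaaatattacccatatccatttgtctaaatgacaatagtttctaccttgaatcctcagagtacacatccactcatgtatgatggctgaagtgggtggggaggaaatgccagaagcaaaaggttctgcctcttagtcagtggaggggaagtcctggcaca
Cxcl3: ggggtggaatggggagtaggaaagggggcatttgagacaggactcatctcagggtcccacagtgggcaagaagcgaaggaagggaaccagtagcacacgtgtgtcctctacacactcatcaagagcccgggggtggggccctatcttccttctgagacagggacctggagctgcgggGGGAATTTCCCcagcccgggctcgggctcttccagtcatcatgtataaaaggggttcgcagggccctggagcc
Il1b: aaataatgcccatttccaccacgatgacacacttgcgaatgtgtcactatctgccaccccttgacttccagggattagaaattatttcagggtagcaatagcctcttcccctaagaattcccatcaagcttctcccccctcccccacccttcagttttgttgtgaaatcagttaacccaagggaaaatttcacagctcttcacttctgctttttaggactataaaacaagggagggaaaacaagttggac
Cxcl2: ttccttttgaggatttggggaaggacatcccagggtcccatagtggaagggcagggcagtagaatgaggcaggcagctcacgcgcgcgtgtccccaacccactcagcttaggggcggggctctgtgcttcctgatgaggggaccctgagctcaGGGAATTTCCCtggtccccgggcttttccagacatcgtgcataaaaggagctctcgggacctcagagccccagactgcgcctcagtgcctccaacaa

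In the Ifit3b stretch the interferon element's core occurred 2 times, as TTTCACTTTC and TTTCAGTTTC, with 178 and 144 bases between the match and the start. The stretches of Cxcl3 and Cxcl2 each held the NF-kB letters as GGGAATTTCC and GGAATTTCCC, which overlap by all but 1 base. Between match and start lay 63 and 62 bases in Cxcl3 and 87 and 86 bases in Cxcl2. The other 3 stretches held neither in these letters. Over windows of 300 bases (250 before to 50 after a start), the interferon element's core was found on either strand in 3.27% of the 19175 windows of all tested genes. It was found in 42 of 148 windows (28.4%) of genes at least 4-fold higher with poly I:C, and in 1 of 87 (1.15%) for genes at least 4-fold higher with PAM. The NF-kB core was found in 1.41% of all tested genes' windows, 5.41% of the poly I:C set and 5.75% of the PAM set. TTCNNNGAA, the palindromic letters of STAT sites, was found in 7.66%, 12.8% and 8.05%. Windows were at hand for 126 of the 169 genes of the poly I:C set and 71 of the 101 of the PAM set. These shares describe letters, were not tested, and do not show that a factor was bound.

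The values are log2 intensities, deposited after every probe had been centred on its own median across the 6 arrays. A value of 0 is therefore the middle of 6 arrays and not a level, and no gene can be set against another by its level. In the group that lies in the middle, the 2 arrays often mirror each other around 0 for the same reason. Whether a probe lay above background cannot be read from these values. Array medians lay between -0.0049 and 0.0072. The replicates of a group differed by a median of 0.0724 (poly I:C) and 0.069 (PAM). Differences below are poly I:C minus PAM on the log2 scale, ± SE, with n = 2 arrays per group and p from limma adjusted over 19935 genes. The labels do not say that replicates came from separate animals or cultures, so p measures only the spread between these arrays, which may be technical. Many genes named here have near-identical relatives (the Ifit, Oas, Gbp, Ifi200, Schlafen, H2-Q and metallothionein genes), whose probes may share signal.

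At an adjusted p under 0.05, 2894 genes (14.5%) were higher with poly I:C and 3402 (17.1%) were higher with PAM, 31.6% of all genes in either direction. Every list count below is to be read against the shares of 14.5% and 17.1%. The median difference of all genes was 0.01. Most of these differences were small: 4086 of the 6296 (64.9%) were under 1.5-fold. Those of at least 2-fold numbered 517 higher with poly I:C (2.59%) and 474 higher with PAM (2.38%), together 4.97% of all genes. At 4-fold or more the numbers were 169 (0.848%) and 101 (0.507%), and at 16-fold or more 29 (0.145%) and 10 (0.0502%).

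**Figure D1:**
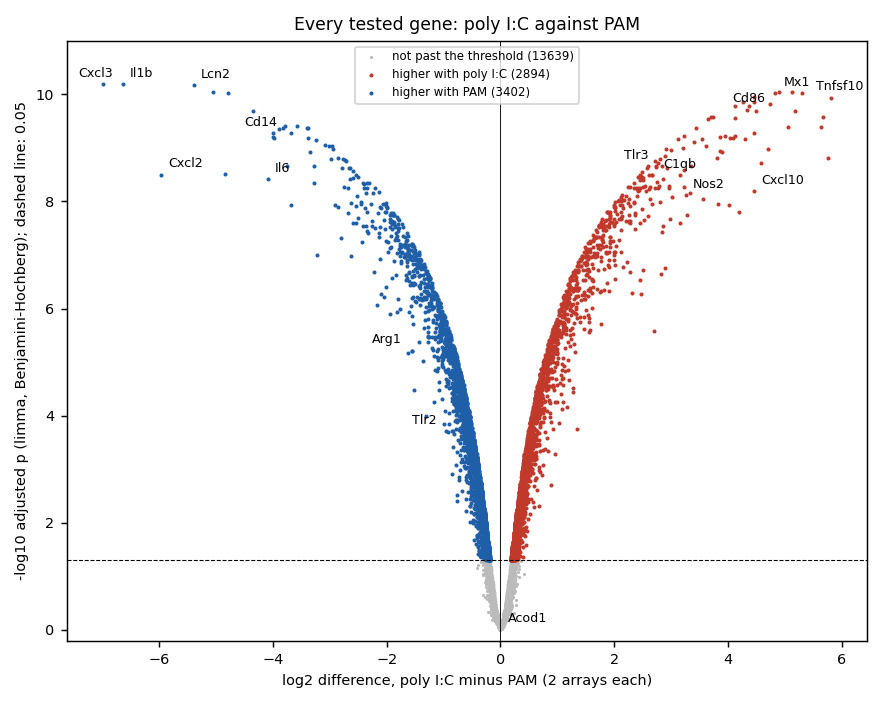
Each point is 1 of 19935 genes, with the log2 difference (poly I:C minus PAM, 2 arrays each) on the x axis and -log10 of the limma adjusted p on the y axis; the dashed line is 0.05. Red points (2894) are higher with poly I:C and blue points (3402) higher with PAM; the extremes are Tnfsf10 at 5.80 and Cxcl3 at -6.98, and Acod1 lies at 0.00.

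The gene furthest toward poly I:C was Tnfsf10, which encodes the death ligand TRAIL. It read 5.48 and 5.66 on the poly I:C arrays and -0.15 and -0.30 on the PAM arrays, with control arrays at -0.31 and 0.15. The difference was 5.80 ± 0.08, or 55.7-fold (limma adjusted p = 1.15e-10). At the other end stood Cxcl3, a chemokine for neutrophils. It read -0.08 and 0.08 on the poly I:C arrays and 7.05 and 6.92 on the PAM arrays, a difference of -6.98 ± 0.08 or 127-fold (limma adjusted p = 6.43e-11). For both genes the other ligand's arrays lay among or next to the control arrays. Il1b, the interleukin 1 beta gene, read -0.07 and 0.07 on the poly I:C arrays and 6.68 and 6.61 on the PAM arrays (difference -6.64 ± 0.07), and the neutrophil chemokine gene Cxcl2 read -0.30 and 0.30 on the poly I:C arrays and 5.97 and 5.95 on the PAM arrays (difference -5.96 ± 0.15).

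**Figure D2:**
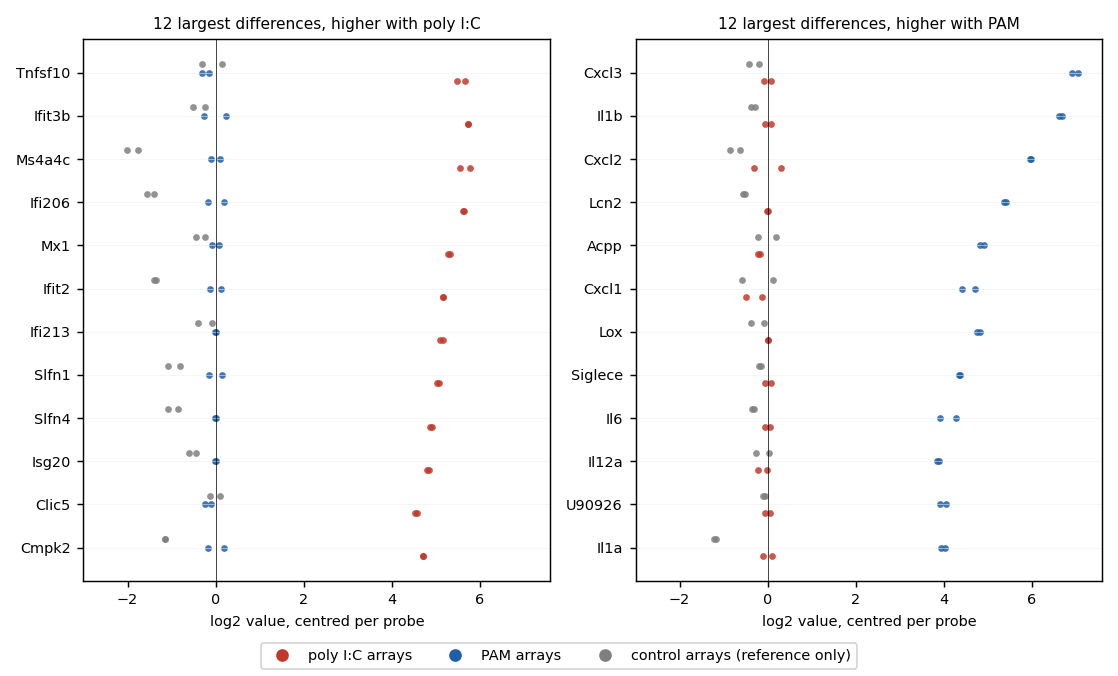
The 12 genes with the largest difference in each direction, 1 row a gene, with the centred log2 value of every array on the x axis: poly I:C in red, PAM in blue, controls in grey. On the left the poly I:C arrays lie between 4.53 and 5.78 and the PAM arrays between -0.30 and 0.24; on the right the PAM arrays lie between 3.85 and 7.05 and the poly I:C arrays between -0.48 and 0.30.

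Genes of the interferon system made up the broadest block on the poly I:C side. Of 180 measured members of its lists, 128 (71.1%) were higher with poly I:C and 16 (8.89%) higher with PAM, with a median difference of 1.18. Among antiviral effectors, the proteins that block steps of viral replication, 30 of 33 were higher with poly I:C and 2 with PAM (median 2.24). The transcript of Mx1, a gene of the dynamin-like GTPase family, read 5.28 and 5.33 on the poly I:C arrays and 0.08 and -0.08 on the PAM arrays (difference 5.30 ± 0.07, 39.5-fold). Whether these cells made a working Mx1 protein was not tested. Ifit2, which binds foreign RNA, differed by 5.17 ± 0.08, Isg20, an RNA exonuclease, by 4.82 ± 0.07, and Cmpk2, a mitochondrial nucleotide kinase, by 4.71 ± 0.10. The exceptions were Ifi27 and Ifitm2. Ifi27 read -1.91 and -2.10 on the poly I:C arrays and 0.70 and 0.78 on the PAM arrays, so its poly I:C arrays lay below the control arrays (-0.02 and 0.02) as well as below the PAM arrays (difference -2.75 ± 0.08).

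The families of large GTPases and DNA-binding proteins that interferon controls went the same way. All 8 guanylate-binding protein genes measured, whose products attack the vacuoles of intracellular pathogens, were higher with poly I:C, by 1.00 to 4.46. Gbp9 differed by 4.46 ± 0.09 and Gbp4 by 4.09 ± 0.08. Of 5 immunity-related GTPase genes 4 were higher with poly I:C, among them Iigp1 (4.01 ± 0.13). In the p200 family of DNA sensors and their relatives 7 of 8 were higher (median 3.24), with Ifi206 at 5.64 ± 0.10 and Ifi213 at 5.12 ± 0.07. In the Schlafen family, regulators of translation and proliferation, 8 of 9 were higher, with Slfn1 at 5.05 ± 0.09 and Slfn4 at 4.89 ± 0.06. None of the members of these 4 families was higher with PAM by limma, also at an unadjusted p under 0.05. That held for the other lists below with a count of 0 in a direction, except 1 acute-phase gene.

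Most genes for receptors and relays of nucleic acid sensing, a list not limited to RNA, were also higher with poly I:C. Of 17 genes for nucleic acid sensors and their kinases 14 were higher with poly I:C and 0 with PAM (median 1.32). The RNA helicase sensors Ddx58 (RIG-I) and Ifih1 (MDA5) read 2.40 and 2.43 on the poly I:C arrays and 0.06 and -0.06 on the PAM arrays and 2.04 and 2.00 on the poly I:C arrays and 0.04 and -0.04 on the PAM arrays, and their control arrays -0.99 and -0.91 and -1.07 and -1.01, so that PAM arrays sat between controls and poly I:C. Their differences were 2.41 ± 0.07 and 2.02 ± 0.07. Of 13 genes of the 2-5A system, which degrades viral RNA, 8 were higher with poly I:C, led by Oasl1 (3.90 ± 0.09) and Oas3 (3.83 ± 0.12). The 1 member higher with PAM was Abce1 (-0.67 ± 0.07), which encodes an inhibitor of RNase L and also recycles ribosomes.

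The genes that carry the interferon signal itself were more mixed. Irf7, the factor that amplifies interferon transcription, read 3.53 and 3.59 on the poly I:C arrays and 0.19 and -0.19 on the PAM arrays against -1.51 and -1.77 on control arrays (difference 3.56 ± 0.11). Of 8 interferon regulatory factors 7 were higher with poly I:C and 0 with PAM. Stat2, part of the complex that binds interferon response elements, differed by 2.49 ± 0.06, while the kinase gene Jak2 differed by -0.99 ± 0.07. Usp18, which shuts off the type I receptor, differed by 4.12 ± 0.08, and Socs3, a brake on STAT3 signalling, by -2.13 ± 0.08. Socs3 read -0.14 and 0.08 on the poly I:C arrays and 2.08 and 2.12 on the PAM arrays, and only its PAM arrays lay away from the control arrays (-0.21 and -0.08).

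Of the interferon genes themselves 1 passed the test, Ifnz, named after its values were seen, which was slightly higher with PAM (-0.26). Ifnb1 read 0.00 and 0.06 on the poly I:C arrays and -0.09 and 0.02 on the PAM arrays (difference 0.07 ± 0.07, limma adjusted p = 0.555), and Ifna4 differed by 0.03 ± 0.07 (limma adjusted p = 0.807). The 6 arrays of Ifnb1, controls included, lay between -0.09 and 0.06. Whether these transcripts were present cannot be told from centred values. Of 22 interferon and interferon receptor genes 2 were higher with poly I:C (1 without PAM replicate 1) and 4 with PAM. The shares in this list were 9.09% and 18.2%, against 14.5% and 17.1% of all genes. Both chains of the type I receptor were among the 4 higher with PAM: Ifnar2 differed by -0.60 ± 0.07 and Ifnar1 by -0.51 ± 0.07.

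All 20 genes for ISG15-type conjugation and its ubiquitin relatives were higher with poly I:C (median 1.58), including the ubiquitin ligase genes Trim30d (2.45 ± 0.09) and Trim12a (2.27 ± 0.07). In the PARP family, enzymes that attach ADP-ribose, 11 of 15 were higher with poly I:C, with Parp11 at 2.72 ± 0.06 and Parp10 at 1.90 ± 0.07. Parp1, the DNA damage enzyme, was the 1 member higher with PAM (-0.42 ± 0.07).

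Genes of secreted signals lay on both sides. Of 106 cytokine, chemokine and receptor genes, 34 were higher with poly I:C and 32 with PAM, with a median of 0.05. Among 7 genes for neutrophil and platelet CXC chemokines, 6 were higher with PAM and 0 with poly I:C (median -3.68). Besides Cxcl3 and Cxcl2, Cxcl1 read -0.48 and -0.12 on the poly I:C arrays and 4.71 and 4.41 on the PAM arrays (difference -4.85 ± 0.13). Among 19 CXCR3 ligands and chemokines for mononuclear cells, 9 were higher with poly I:C and 5 with PAM. Cxcl10, which draws T and NK cells, read 4.31 and 4.61 on the poly I:C arrays and 0.20 and -0.20 on the PAM arrays with control arrays at -2.75 and -2.92, so PAM arrays lay between the controls and poly I:C (difference 4.46 ± 0.13, 22-fold). The monocyte chemokine gene Ccl12 differed by 4.26 ± 0.06, and Ccl5 by 2.00 ± 0.07. Ccl3 and Ccl4, inflammatory chemokines, lay on the PAM side at -2.51 ± 0.09 and -1.52 ± 0.08.

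The interleukin 1 and 18 genes split by member. Il1b and Il1a, the 2 agonists, were higher with PAM (-6.64 ± 0.07 and -3.98 ± 0.08). Il18 (1.87 ± 0.10), its decoy receptor gene Il18bp (2.90 ± 0.07) and the interleukin 1 receptor antagonist gene Il1rn (1.73 ± 0.06) were higher with poly I:C. For Il1rn the arrays read 1.71 and 1.75 on the poly I:C arrays and 0.01 and -0.01 on the PAM arrays against control arrays at -0.59 and -0.77. In the whole list of 15 genes 4 were higher with poly I:C and 5 with PAM.

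In the interleukin 6, 10 and 12 families 1 of 14 was higher with poly I:C and 6 with PAM. Il6 read -0.06 and 0.06 on the poly I:C arrays and 4.28 and 3.91 on the PAM arrays (difference -4.09 ± 0.11) and Il12a, the p35 chain of interleukin 12, read -0.23 and -0.02 on the poly I:C arrays and 3.85 and 3.90 on the PAM arrays (difference -4.00 ± 0.08). For both genes the poly I:C arrays lay next to or among the control arrays (-0.36 and -0.30 for Il6, 0.02 and -0.27 for Il12a). Il12b, the p40 chain, differed less (-0.70 ± 0.08). The 1 member on the other side was Il27 (1.28 ± 0.13), whose partner chain gene Ebi3 was higher with PAM (-1.10 ± 0.07). Il10 differed by 0.00 ± 0.08 and did not pass (limma adjusted p = 0.982).

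Il15, a cytokine that sustains NK and memory CD8 T cells, read 2.48 and 2.75 on the poly I:C arrays and -1.18 and -1.21 on the PAM arrays with control arrays at -0.03 and 0.03. Poly I:C arrays thus lay above and PAM arrays below the control arrays (difference 3.81 ± 0.09, 14-fold). Its presenting receptor gene Il15ra differed by 3.01 ± 0.09. Tnf, the tumour necrosis factor gene, read -0.19 and 0.19 on the poly I:C arrays and 2.27 and 2.19 on the PAM arrays against -2.27 and -2.13 on control arrays. Both ligands' arrays lay above the controls, and PAM arrays were higher by 4.68-fold (difference -2.23 ± 0.11). Tnfsf9, the ligand of 4-1BB, was also on the PAM side (-1.90 ± 0.07). Over the TNF superfamily 11 of 33 (33.3%) were higher with poly I:C and 6 (18.2%) with PAM, against 14.5% and 17.1% of all genes.

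Receptors for microbial products followed neither ligand as a class: 8 of 19 Toll-like receptor and accessory genes were higher with poly I:C and 4 with PAM. Each ligand's own receptor gene was higher with that ligand. Tlr3 read 2.42 and 2.49 on the poly I:C arrays and -0.33 and -0.25 on the PAM arrays (difference 2.74 ± 0.07), while its control arrays (-0.18 and 0.18) lay near the PAM arrays. Tlr2 read -0.19 and 0.19 on the poly I:C arrays and 0.81 and 0.91 on the PAM arrays against -3.18 and -3.41 on control arrays, so both ligands' arrays lay far above the controls and PAM arrays were 1.82-fold above poly I:C (difference -0.86 ± 0.11). Tlr1, the partner of TLR2 for triacylated lipopeptides, differed by -1.44 ± 0.07, and Tlr9, the receptor for unmethylated CpG DNA, by 2.67 ± 0.08.

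The largest differences of this class were in accessory proteins. Cd14, which hands lipopolysaccharide and lipopeptides to the receptors, read -1.35 and -1.22 on the poly I:C arrays and 2.43 and 2.35 on the PAM arrays, with control arrays at -0.07 and 0.07 (difference -3.68 ± 0.07, 12.8-fold). Ly86, which encodes MD-1, the partner of RP105, read 1.76 and 1.77 on the poly I:C arrays and -1.92 and -1.94 on the PAM arrays with control arrays at 0.00 and 0.00 (difference 3.70 ± 0.06, 13-fold). In both genes the 2 ligands lay on opposite sides of the control arrays. Myd88, the adaptor gene of the TLR2 route, was slightly higher with poly I:C (0.50 ± 0.06). Irak3, an inhibitor of the MyD88 complex, was higher with PAM (-1.81 ± 0.06).

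**Figure D3:**
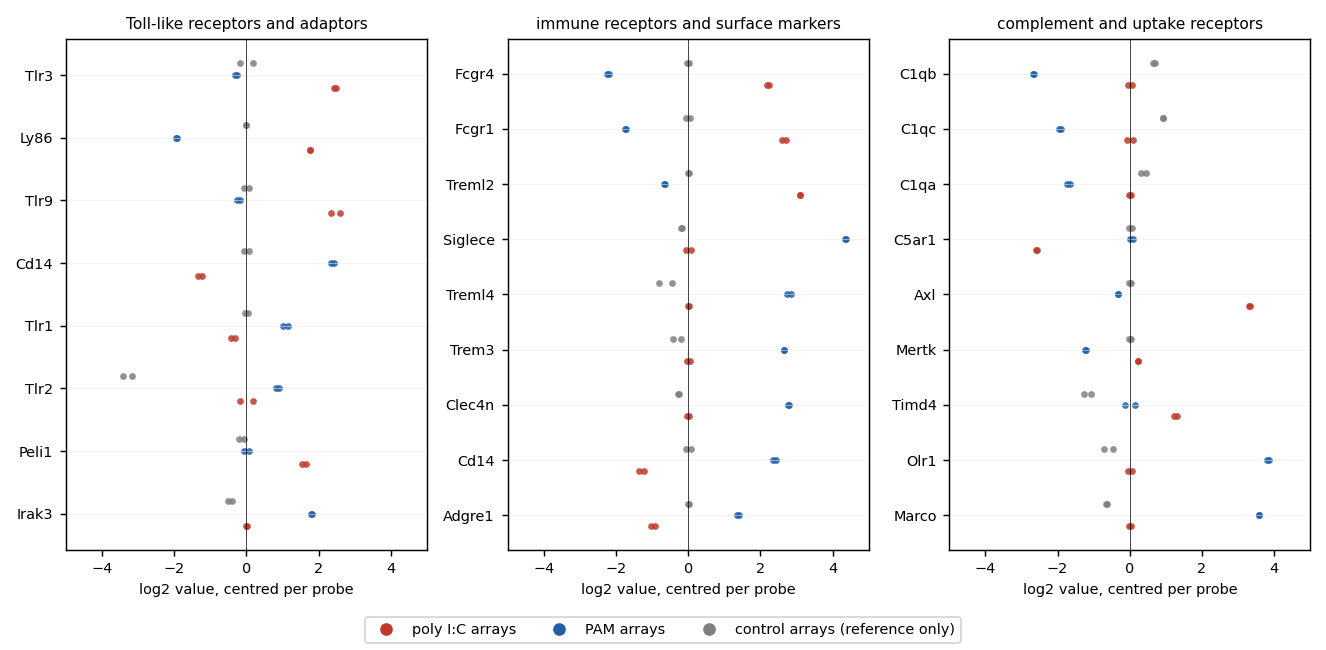
Centred log2 value of every array (x axis) for receptor, adaptor and surface genes, 1 row a gene: poly I:C in red, PAM in blue, controls in grey. Cd14 and Ly86 have the ligands on opposite sides of the controls, with differences of -3.68 and 3.70; Fcgr1 and Fcgr4 part by 4.37 and 4.45, and for C1qb it is the PAM arrays (-2.68 and -2.65) that lie below the rest.

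NF-kB genes lay mostly on the PAM side. Of 24 genes for its subunits and feedback inhibitors, 14 were higher with PAM and 7 with poly I:C (median -0.45). The 7 became 4 without poly I:C replicate 2, without PAM replicate 1 or without PAM replicate 2. Nfkbiz, an atypical inhibitor and coactivator needed for Il6, read -0.04 and 0.04 on the poly I:C arrays and 2.06 and 2.08 on the PAM arrays (difference -2.07 ± 0.07), and the RNase gene Zc3h12a, which degrades cytokine mRNA, differed by -1.84 ± 0.07. On the other side the differences stayed under 2-fold, the largest being Traf2, an adaptor of TNF receptors (0.54 ± 0.06). MAP kinase phosphatases and AP-1 factors split 10 to 8 of 26. Within them Dusp1 (1.80 ± 0.07) was higher with poly I:C and its relative Dusp4 (-2.45 ± 0.08) with PAM.

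Antigen presentation lay on the poly I:C side: 45 of 71 genes were higher with poly I:C and 11 with PAM (median 0.47). Among MHC class I chains the classical genes H2-K1, H2-D1 and H2-L had no value, so nothing is shown for them. For the chains measured, the split was 12 to 2 of 19. H2-Q4 read 2.34 and 2.36 on the poly I:C arrays and 0.04 and -0.04 on the PAM arrays (difference 2.35 ± 0.07). The 2 exceptions were Cd1d1, which presents lipids (-1.51 ± 0.07), and H2-M2 (-0.84 ± 0.06), whose control arrays lay at -5.10 and -5.14, far below those of either ligand. For peptide supply and loading the split was 12 to 3 of 16 (median 1.15). Tap1, the peptide transporter of the endoplasmic reticulum, differed by 2.12 ± 0.07, and Psmb10, an immunoproteasome subunit, by 1.90 ± 0.07. The 3 exceptions, Calr (-0.99 ± 0.08), Canx (-0.49 ± 0.06) and Pdia3 (-0.55 ± 0.07), are general chaperones of that compartment. MHC class II genes split 8 to 2 of 13 (8 to 1 without poly I:C replicate 2 or PAM replicate 2), with differences no larger than 1.11 for the beta chain gene H2-Eb1.

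Of 23 costimulatory and checkpoint genes 13 were higher with poly I:C and 4 with PAM. Cd86, a ligand of CD28 on T cells, read 4.32 and 4.35 on the poly I:C arrays and -0.06 and 0.06 on the PAM arrays with control arrays at -0.41 and -0.40 (difference 4.33 ± 0.07, 20.2-fold). Cd40 read 2.03 and 2.20 on the poly I:C arrays and 0.00 and 0.00 on the PAM arrays against -2.45 and -2.52 on control arrays, so both ligands' arrays lay above the controls, and those of poly I:C were higher (difference 2.11 ± 0.07). Icosl, the ligand of ICOS, went the other way (-1.76 ± 0.08).

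**Figure D4:**
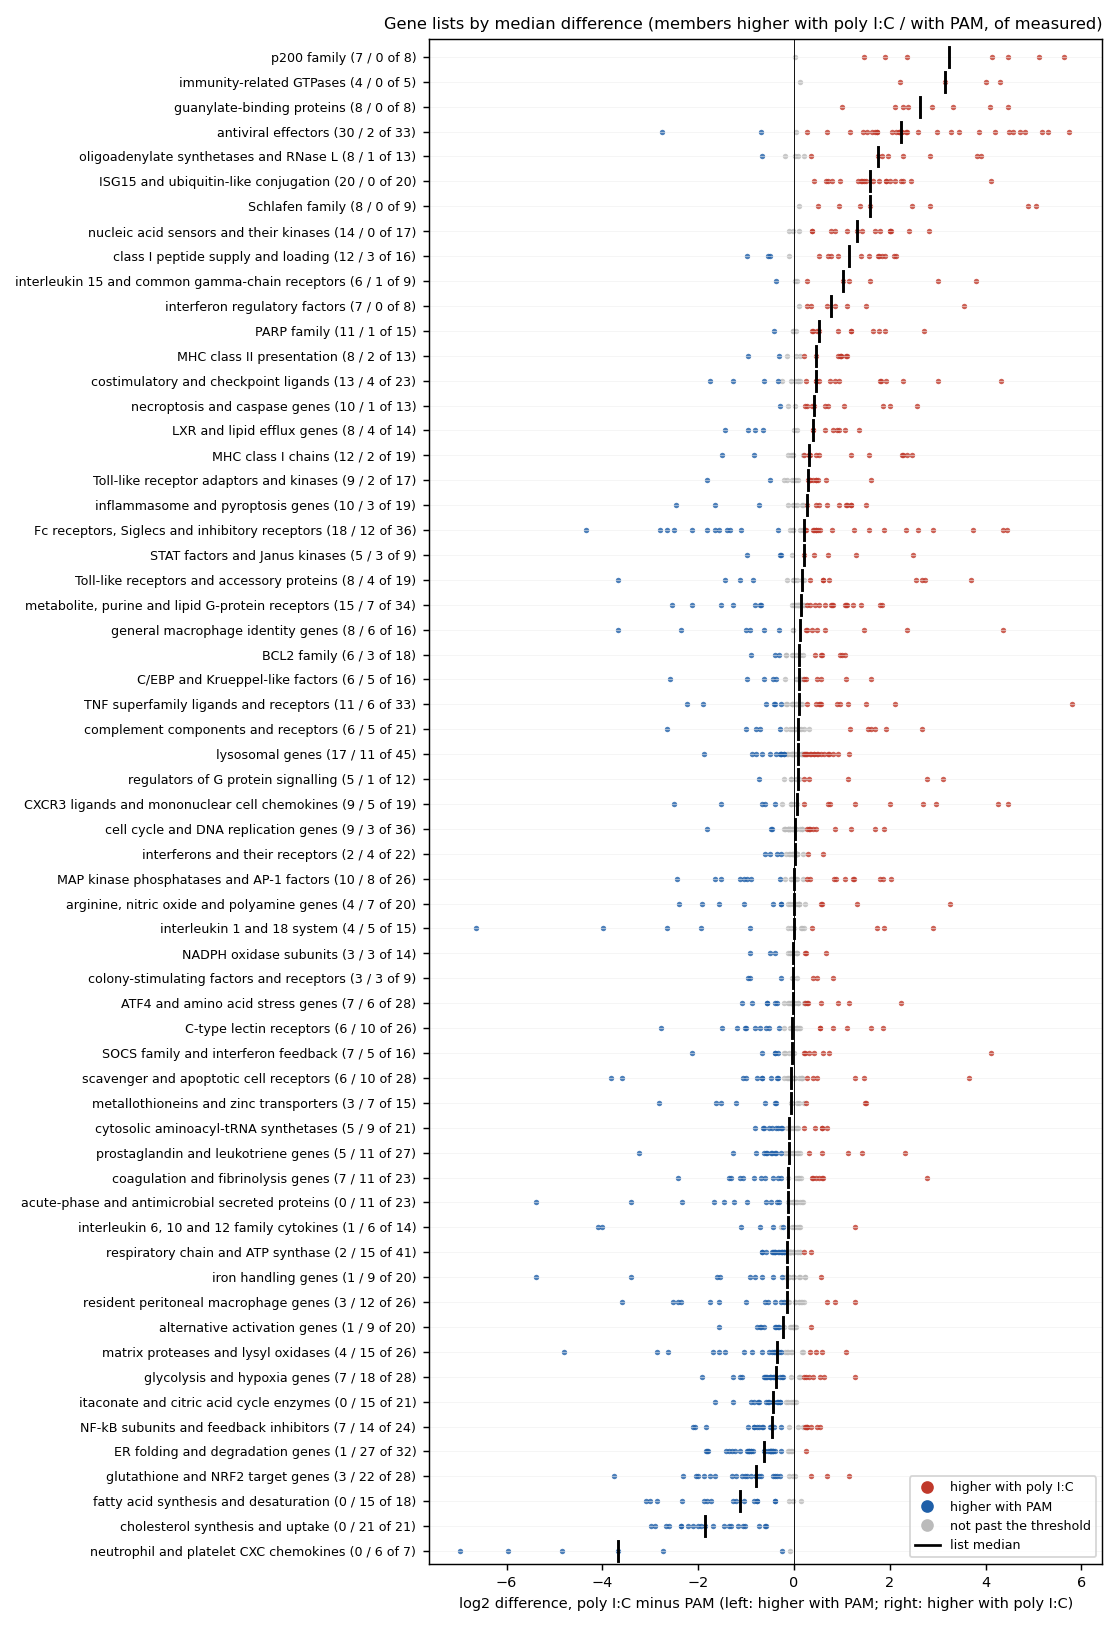
Each row is a gene list and each point a member, with its log2 difference (poly I:C minus PAM) on the x axis; red and blue points passed the test for poly I:C and PAM, grey points did not, and black ticks are list medians. Lists run from the p200 family (median 3.24) at the top to neutrophil and platelet CXC chemokines (median -3.68) at the bottom; row labels give members higher with poly I:C and with PAM, of those measured.

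Cell death genes showed the same lean, with 26 of 50 higher with poly I:C and 7 with PAM. In necroptosis and caspase genes the split was 10 to 1 of 13 (the 1 became 0 without poly I:C replicate 1 or PAM replicate 2). Zbp1, a sensor of Z-form nucleic acid, read 2.10 and 1.93 on the poly I:C arrays and 0.13 and -0.13 on the PAM arrays against -2.73 and -2.72 on control arrays (difference 2.01 ± 0.10), and Mlkl, which perforates the membrane in necroptosis, differed by 1.85 ± 0.07. Inflammasome and pyroptosis genes split 10 to 3 of 19. The effectors Casp4 (2.83-fold), Casp1 (1.20 ± 0.06) and Gsdmd (1.19 ± 0.07) were higher with poly I:C. The sensors Nlrp3 (-2.46 ± 0.08), Mefv (-1.64 ± 0.08) and Nlrc4 (-0.73 ± 0.06) were higher with PAM, with Nlrp3 at -0.10 and 0.10 on the poly I:C arrays and 2.43 and 2.49 on the PAM arrays.

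Metabolism and stress genes formed the broadest block on the PAM side: 185 of 333 were higher with PAM and 46 with poly I:C (median -0.31). All 21 genes of cholesterol synthesis and uptake were higher with PAM, 18 of them at least 2-fold (median -1.86). Sqle, squalene epoxidase, read -2.76 and -3.05 on the poly I:C arrays and -0.02 and 0.02 on the PAM arrays with control arrays at 0.20 and 0.30 (difference -2.91 ± 0.09). Idi1, an isomerase of the same route, read -3.04 and -2.93 on the poly I:C arrays and -0.03 and 0.03 on the PAM arrays with controls at 0.26 and 0.33 (difference -2.98 ± 0.07). For both genes the poly I:C arrays lay far below the other 4, and the PAM arrays lay next to the control arrays.

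Of 18 genes for fatty acid synthesis and desaturation 15 were higher with PAM and 0 with poly I:C (median -1.12). The desaturase genes Scd2 and Scd1 read -2.76 and -2.82 on the poly I:C arrays and 0.21 and 0.23 on the PAM arrays and -2.70 and -2.77 on the poly I:C arrays and 0.09 and 0.14 on the PAM arrays, again with low poly I:C arrays. Fads2, which desaturates polyunsaturated fatty acids, read -1.89 and -1.82 on the poly I:C arrays and 1.20 and 1.24 on the PAM arrays around control arrays at 0.04 and -0.04 (difference -3.08 ± 0.07), so here the ligands lay on opposite sides. Lipid efflux genes split by member: Abcg1 (1.35 ± 0.07) and Nr1h3, the LXR alpha receptor (1.07 ± 0.06), were higher with poly I:C, while Abca1 (-1.44 ± 0.07) was higher with PAM. In that list 8 of 14 were higher with poly I:C and 4 with PAM.

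Glutathione and NRF2 target genes, the antioxidant programme, were higher with PAM in 22 of 28 and with poly I:C in 3 (median -0.80). Slc7a11, the cystine importer, read -0.15 and 0.15 on the poly I:C arrays and 3.75 and 3.76 on the PAM arrays with control arrays at -1.38 and -1.39 (difference -3.76 ± 0.09, 13.5-fold). Gclm, a subunit of the first glutathione enzyme, differed by -2.31 ± 0.06. Keap1, which targets NRF2 for degradation, was among the 3 on the other side (1.15 ± 0.07). The metallothionein genes Mt2 and Mt1, binders of zinc and copper, differed by -2.81 ± 0.11 and -1.52 ± 0.07. Mt2 read -2.47 and -2.09 on the poly I:C arrays and 0.60 and 0.47 on the PAM arrays, with the poly I:C arrays below the control arrays (0.01 and -0.01).

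Endoplasmic reticulum folding and degradation genes were higher with PAM in 27 of 32 (median -0.62), and 1 was higher with poly I:C (0 without poly I:C replicate 1 or PAM replicate 1). Hyou1, a chaperone, read -0.94 and -0.92 on the poly I:C arrays and 0.88 and 0.88 on the PAM arrays around control arrays at -0.03 and 0.03 (difference -1.82 ± 0.06), and Herpud1, which serves protein degradation there, differed by -1.79 ± 0.06. Both genes had the ligands on opposite sides of the controls. Genes of the ATF4 and amino acid stress list split 7 to 6 of 28. Ddit3, the stress factor CHOP, read 2.11 and 1.99 on the poly I:C arrays and -0.16 and -0.22 on the PAM arrays (difference 2.24 ± 0.07) and was higher with poly I:C.

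In energy metabolism 15 of 21 genes of the itaconate and citric acid cycle list were higher with PAM and 0 with poly I:C (median -0.43). Pcx, pyruvate carboxylase, read -0.02 and 0.02 on the poly I:C arrays and 1.59 and 1.68 on the PAM arrays (difference -1.64 ± 0.07), and Idh2, mitochondrial isocitrate dehydrogenase, read -1.13 and -1.36 on the poly I:C arrays and 0.00 and 0.06 on the PAM arrays (difference -1.28 ± 0.08). Acod1, which makes itaconate, did not pass the test. It read 0.00 and 0.05 on the poly I:C arrays and 0.00 and 0.05 on the PAM arrays against -6.56 and -6.59 on control arrays, and its difference was 0.00 ± 0.07 (limma adjusted p = 0.994). Glycolysis and hypoxia genes were higher with PAM in 18 of 28 and with poly I:C in 7. Aldoc, an aldolase, differed by -1.92 ± 0.08 and Pfkl, a phosphofructokinase subunit, by -1.27 ± 0.07, while the hexokinase gene Hk3 differed by 1.28 ± 0.06. Of 41 respiratory chain and ATP synthase genes 15 were higher with PAM and 2 with poly I:C (1 without any single one of the 4 arrays), none by as much as 2-fold.

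Arginine is used by nitric oxide synthase or by arginases, and the genes of these enzymes parted. Nos2, inducible nitric oxide synthase, read 3.19 and 3.33 on the poly I:C arrays and 0.15 and -0.15 on the PAM arrays with control arrays at -1.16 and -1.13 (difference 3.26 ± 0.10, 9.59-fold). Arg2 read 0.00 and 0.00 on the poly I:C arrays and 2.44 and 2.35 on the PAM arrays (difference -2.40 ± 0.07) and Arg1 read -0.42 and -0.32 on the poly I:C arrays and 1.41 and 0.97 on the PAM arrays (difference -1.56 ± 0.12), both higher with PAM. The arginine importer gene Slc7a2 read -0.16 and 0.16 on the poly I:C arrays and 1.92 and 1.90 on the PAM arrays against -2.90 and -2.95 on control arrays (difference -1.91 ± 0.10). In the list of 20 genes 4 were higher with poly I:C and 7 with PAM.

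**Figure D5:**
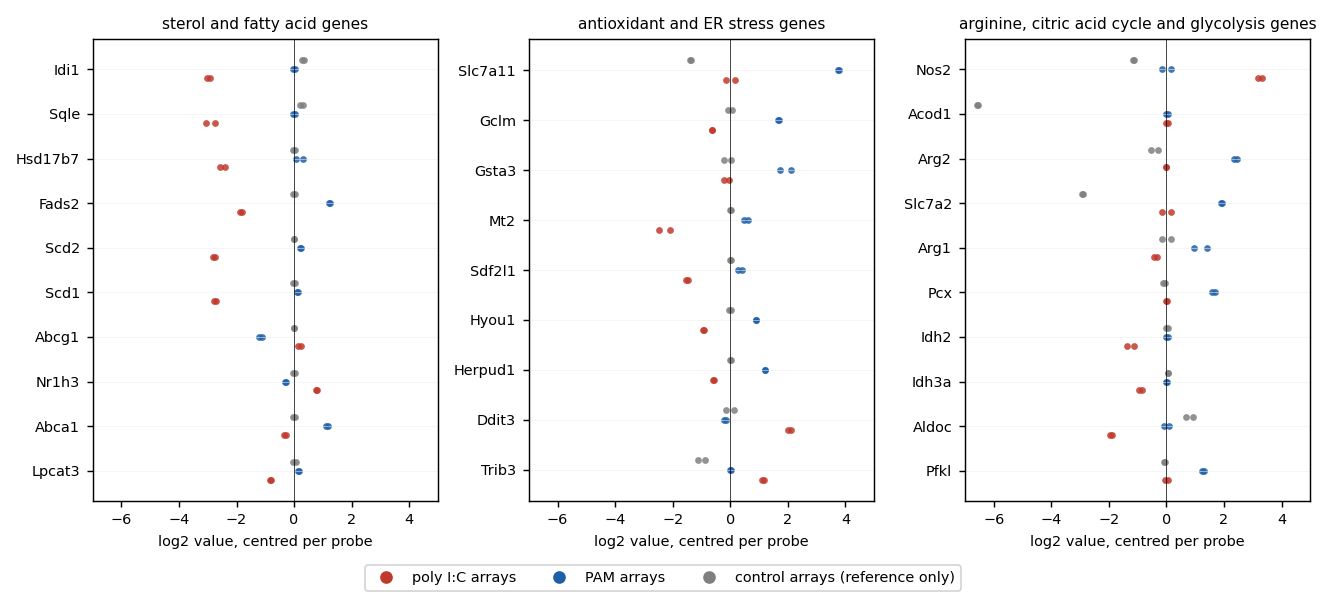
Centred log2 value of every array (x axis) for sterol and fatty acid genes, antioxidant and stress genes, and genes of arginine, citric acid cycle and glycolysis, 1 row a gene: poly I:C in red, PAM in blue, controls in grey. For Idi1 (-3.04 and -2.93) and Sqle (-2.76 and -3.05) the poly I:C arrays lie apart on the left, for Slc7a11 the PAM arrays (3.75 and 3.76) lie apart on the right, and for Acod1 the 4 arrays of both ligands lie between 0.00 and 0.05.

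Macrophage function genes split nearly evenly, 104 higher with poly I:C and 113 with PAM of 360 (median 0.01). Among Fc receptors, Siglecs and inhibitory receptors 18 of 36 were higher with poly I:C and 12 with PAM. Fcgr1, the high-affinity IgG receptor, read 2.70 and 2.59 on the poly I:C arrays and -1.71 and -1.74 on the PAM arrays (difference 4.37 ± 0.07), and Fcgr4, another activating receptor, read 2.19 and 2.25 on the poly I:C arrays and -2.20 and -2.26 on the PAM arrays (difference 4.45 ± 0.07). Control arrays lay between the ligands for both (-0.05 and 0.05 and 0.02 and -0.02). Siglece, an inhibitory sialic acid receptor, read -0.07 and 0.07 on the poly I:C arrays and 4.36 and 4.35 on the PAM arrays (difference -4.35 ± 0.07), and only its PAM arrays lay far from the controls (-0.19 and -0.16).

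The C1q chains, which start the classical complement cascade, were higher with poly I:C. C1qb read 0.06 and -0.06 on the poly I:C arrays and -2.68 and -2.65 on the PAM arrays with control arrays at 0.70 and 0.65 (difference 2.67 ± 0.07), and C1qc and C1qa differed by 1.93 ± 0.08 and 1.69 ± 0.07. The PAM arrays of all 3 lay below the controls and below poly I:C. C5ar1, the receptor for the C5a fragment, read -2.58 and -2.60 on the poly I:C arrays and 0.09 and 0.01 on the PAM arrays, with poly I:C arrays low (difference -2.64 ± 0.07). Among receptors for apoptotic cells, Axl differed by 3.65 ± 0.06 and Mertk by 1.46 ± 0.06 toward poly I:C. The scavenger receptor genes Olr1 (-3.82 ± 0.07) and Marco (-3.58 ± 0.06) were higher with PAM, with Marco at 0.03 and -0.03 on the poly I:C arrays and 3.57 and 3.58 on the PAM arrays. C-type lectin receptors leaned to PAM with 10 of 26 against 6, led by Clec4n, which encodes Dectin-2 (-2.77 ± 0.07).

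Secreted effectors were mainly on the PAM side. Of 23 acute-phase and antimicrobial genes 11 were higher with PAM and 0 with poly I:C (1 without poly I:C replicate 1). Lcn2, which starves bacteria of iron by binding siderophores, read -0.01 and 0.01 on the poly I:C arrays and 5.41 and 5.37 on the PAM arrays (difference -5.39 ± 0.06, 42-fold), and Hp, haptoglobin, read 0.01 and -0.01 on the poly I:C arrays and 3.41 and 3.39 on the PAM arrays (difference -3.40 ± 0.06). Of 26 matrix protease and lysyl oxidase genes 15 were higher with PAM and 4 with poly I:C. Lox, which cross-links collagen, read 0.00 and 0.00 on the poly I:C arrays and 4.75 and 4.83 on the PAM arrays (difference -4.79 ± 0.07), and Mmp9, gelatinase B, differed by -2.85 ± 0.09. Ptgs2, the inducible cyclooxygenase, read -0.28 and 0.28 on the poly I:C arrays and 3.22 and 3.25 on the PAM arrays against -1.95 and -1.70 on control arrays (difference -3.23 ± 0.14), whereas Hpgds, which makes prostaglandin D, read 0.20 and -0.20 on the poly I:C arrays and -2.46 and -2.18 on the PAM arrays and lay on the poly I:C side (difference 2.32 ± 0.13). The PAM arrays of Hpgds were the low ones, its control arrays lying at 1.21 and 1.24.

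The labelled cell type was checked on macrophage genes, of which centred values can show a difference but no presence. Of 16 general macrophage identity genes 8 were higher with poly I:C and 6 with PAM (median 0.13). On the poly I:C side Fcgr1 was followed by Aif1, which encodes an actin-binding protein (2.37 ± 0.09), and Mertk, and on the PAM side Cd14 lay furthest. Csf1r differed by -0.91 ± 0.06, Lyz2 by -0.32 ± 0.06, Cd68 by 0.27 ± 0.06, Itgam by -1.01 ± 0.07 and Adgre1, which encodes F4/80, by -2.35 ± 0.07. In bulk samples fewer cells of a type and less RNA per cell cannot be told apart. Of 26 genes typical of resident peritoneal macrophages 12 were higher with PAM and 3 with poly I:C, and of 20 alternative activation genes 9 and 1.

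Over all genes 14.5% were higher with poly I:C and 17.1% with PAM. Of 105 marker genes of other peritoneal cells 15 (14.3%) were higher with poly I:C and 15 (14.3%) with PAM (median 0.01). Over the 4 fits that leave out 1 array these numbers were 11 to 13 and 13 to 16. No summed level can be given from centred values. Neutrophil markers had 4 of 15 higher with PAM and 2 with poly I:C (median 0.01). Mmp9, Mmp8 (-2.62 ± 0.08) and S100a8 (-2.33 ± 0.09) were the largest. The 2 on the poly I:C side were Padi4 (0.74 ± 0.12) and Csf3r (0.49 ± 0.08). Mesothelial and fibroblast markers had 7 of 18 higher with PAM and 4 with poly I:C (median 0.00). The 4 became 2 without poly I:C replicate 1 or PAM replicate 1, or with all 6 arrays in the fit. The largest were Pdgfrb, a growth factor receptor of mesenchymal cells (-2.03 ± 0.07), and on the other side the mesothelial marker Lrrn4 (0.62 ± 0.07). The platelet chemokine gene Pf4, also made by macrophages, differed by -2.74 ± 0.06. Of 13 dendritic cell markers 3 were higher with poly I:C, namely Bst2 (1.73 ± 0.07), which is also known as an interferon-induced antiviral gene, Fscn1 (0.41 ± 0.08) and Dpp4 (0.30 ± 0.07), and 1 with PAM, Ly75 (-0.58 ± 0.07). T and NK cell markers ranged from -0.06 to 0.28 and B cell markers from -0.27 to 0.59. The part of other cells in the results was not tested.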

How the data were processed

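RNA of cultured macrophages was hybridised as biotinylated cRNA to Affymetrix arrays, per the labels' protocols. The authors deposited log2 values (base taken as 2) for 28815 probes, each centred on its median over 6 arrays. Background correction, summarization and normalization were not given in the sources used here. Of the probes, 21780 had 1 gene symbol in the platform annotation, 1605 several and 5430 none. The last 2 kinds were left out, and probes of a gene were averaged (998 of 19935 genes; probes of Dip2c, Hmcn1 and Ppp2r5c oppose each other). A mean per ligand was fitted to the 4 arrays with limma 3.58.1 in R 4.3.3 (lmFit, eBayes without trend; 2 residual and 7.29 prior degrees of freedom; Benjamini-Hochberg adjustment, threshold 0.05), tested on simulated data. The median SE was 0.0694; the number of arrays limits the precision. No filter on dim probes was possible.

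Members and the 68 gene lists were chosen with earlier results of these data known; lists are described by counts and medians, with no set test. Genes were named by rule: the 12 largest differences in each direction, the 12 next largest outside the lists, up to 3 members per list and direction, and 20 genes always reported where measured. Lyz2 and Cd68 come from the macrophage markers. Alternatives were all 6 arrays, other scalings, robust variance, a replicate block, leaving out each array, each probe alone, and stricter thresholds.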

Additional observations from a re-analysis of the deposited data

How the results depend on the processing

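No called gene changed direction under the 10 alternative fits by gene, but most of these fits could not have shown a change. Fits on all 6 arrays, with robust variances or with a replicate block keep the same difference of means. The arrays of the ligands lay apart in 12204 of the 19935 tested genes, called or not, and in all 6296 called ones. Leaving out 1 array therefore cannot turn the direction of a called gene. Only centring the arrays or quantile normalization could have done so. Higher with poly I:C and with PAM were 2581 and 3144 genes with all 6 arrays in the fit, 2839 and 3458 with arrays centred, 2907 and 3263 after quantile normalization, and 2920 and 3418 with robust variances. Leaving out 1 array gave 2278 to 2525 and 2698 to 3079, with 79.0% to 82.8% of the 6296 calls kept; the lone array of a ligand is then assumed to vary like the other ligand's pair. A minimum of 2-fold left 517 and 474. Probes taken singly gave 3103 and 3773. The labels do not say whether replicate numbers pair the samples. The correlation of deviations was -0.01 between poly I:C and PAM arrays. With control arrays it was -0.073 for poly I:C and 0.155 for PAM. These values do not settle whether the samples were paired. With the replicate number as a block the counts were 3076 and 3522, and 2559 and 3139 with the block on all 6 arrays. Of 352 named genes 17 changed call under some fit, all with small differences. Some list medians within 0.10 of 0 changed sign when 1 array was left out, among them those of the BCL2 family, interferons and their receptors, and B cell markers. Among lysosomal genes, 11 of 45 were higher with PAM, but 6 without poly I:C replicate 2 and 7 without PAM replicate 1 or without PAM replicate 2; the cause was not tested. Signal over background is unknown, so a gene that did not pass may be one that was not detected.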

Other observations

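Large differences also occurred among genes in none of the lists. Of 18675 such genes 2463 (13.2%) were higher with poly I:C and 3012 (16.1%) with PAM, against 14.5% and 17.1% of all genes. Ms4a6b, of a family of membrane-spanning proteins, read 4.13 and 4.11 on the poly I:C arrays and -0.02 and 0.02 on the PAM arrays (difference 4.12 ± 0.06). Kdr, which encodes the vascular endothelial growth factor receptor VEGFR2, read 3.12 and 3.0 on the poly I:C arrays and -0.96 and -0.80 on the PAM arrays around control arrays at -0.01 and 0.01 (difference 3.94 ± 0.08), and Pld4, an endolysosomal exonuclease for nucleic acids, read 1.52 and 1.33 on the poly I:C arrays and -2.20 and -2.17 on the PAM arrays (difference 3.61 ± 0.08). Fgl2, a fibrinogen-like immune regulator, differed by 3.22 ± 0.09 with the same order, poly I:C above and PAM below the control arrays (-0.05 and 0.05). Sp140, a chromatin reader of immune cells, read 3.06 and 3.20 on the poly I:C arrays and -0.13 and -0.31 on the PAM arrays (difference 3.35 ± 0.08), with PAM arrays near the controls (0.02 and -0.02).

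On the PAM side Cav1, the main protein of caveolae, read -0.27 and -0.17 on the poly I:C arrays and 3.54 and 3.58 on the PAM arrays (difference -3.78 ± 0.07), and Tgfbi, an adhesion protein of the matrix, read 0.08 and -0.08 on the poly I:C arrays and 3.32 and 3.36 on the PAM arrays (difference -3.34 ± 0.07). Tarm1, an activating receptor of myeloid cells, differed by -3.89 ± 0.07, and Prkar2b, a regulatory subunit of protein kinase A, by -3.39 ± 0.06. Cd24a, a small glycoprotein of the cell surface, read -1.36 and -1.08 on the poly I:C arrays and 2.05 and 2.07 on the PAM arrays with control arrays at -0.11 and 0.11 (difference -3.27 ± 0.09), so the ligands lay on opposite sides. Sort1, a sorting receptor of the Golgi, read -3.24 and -3.27 on the poly I:C arrays and -0.05 and 0.05 on the PAM arrays with control arrays at 0.21 and 0.37 (difference -3.25 ± 0.07), and its poly I:C arrays were the ones that stood away.

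Regulators of G protein signalling and cell cycle genes each held a few large differences. Rgs1 and Rgs2, which shorten signals of G-protein receptors, read 0.02 and 0.02 on the poly I:C arrays and -3.08 and -3.12 on the PAM arrays and 0.05 and -0.05 on the poly I:C arrays and -2.76 and -2.78 on the PAM arrays, with PAM arrays low (differences 3.12 ± 0.06 and 2.77 ± 0.07). Of 36 cell cycle genes 9 (25.0%) were higher with poly I:C and 3 (8.33%) with PAM, against 14.5% and 17.1% of all genes. The cyclins Ccnd1 (1.89 ± 0.06) and Ccnd2 (1.69 ± 0.07) lay on the poly I:C side and the proliferation antigen gene Mki67 (-1.81 ± 0.07) on the PAM side. Among metabolite receptors, Gpr84, for medium-chain fatty acids, read -0.11 and 0.11 on the poly I:C arrays and 2.51 and 2.58 on the PAM arrays against -3.39 and -3.80 on control arrays (difference -2.54 ± 0.08), and P2ry14, for UDP-glucose, differed by 1.83 ± 0.07.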
